A study of Rattus norvegicus with 10 samples.

Results

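De novo lipogenesis, the making of fatty acids from acetyl-CoA, was followed through 7 enzyme genes (Acly, Acss2, Acaca, Acacb, Fasn, Me1 and Elovl6) in the livers of rats on 5 diets. They are 7 of the 14217 genes to which the array's annotation gives a probe set of their own. The genes were chosen by name, and every probe set to which the platform annotation gives one of these symbols alone was taken. A probe set is a group of short DNA probes that together report 1 transcript. The 7 genes had 11 of the 31042 probe sets that are not controls, with 2 each for Fasn, Acaca, Me1 and Elovl6 and 1 each for the other 3 genes. All 11 were among the 18625 probe sets bright enough to be tested.

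The animals were male rats of the outbred Wistar strain, kept for 12 weeks either on standard chow or on food in which fat supplied 42% of the energy. Lard, coconut fat, olive oil or fish oil (named cod liver oil in the design text) provided that fat. All rats, those on chow included, were fasted overnight before a piece of one liver lobe was frozen, and 2 samples per diet were each measured on 1 Affymetrix array, 10 in all. The age of the rats and the fat content of chow are not given in the sources used here, and the labels do not say whether a sample came from 1 rat or a pool. P-values therefore measure the spread between these samples, and their number limits the precision. In whole liver, fewer cells of a type and less RNA per cell cannot be told apart.

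In the liver cell, ATP citrate lyase (Acly) splits citrate exported from mitochondria into cytosolic acetyl-CoA, and acetyl-CoA synthetase (Acss2) makes the same product from acetate. Acetyl-CoA carboxylase 1 (Acaca) turns acetyl-CoA into malonyl-CoA, from which fatty acid synthase (Fasn) builds palmitate with NADPH, part of which comes from malic enzyme (Me1). Elovl6 lengthens palmitate to stearate. Acetyl-CoA carboxylase 2 (Acacb) makes malonyl-CoA at the mitochondrial surface, where it holds back the entry of fatty acids for oxidation. In rodent liver the pathway is known to be low in fasting and high after carbohydrate feeding, under the transcription factors SREBP-1c and ChREBP, and to be lowered by the polyunsaturated fatty acids of fish oil.

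The values are MAS5 signals, a linear brightness that the authors scaled so that every array has a 2% trimmed mean of 100. The median signal of an array was 28.7 to 31.9 on 9 arrays and 36.8 on the second array of lard. The ratio of the 3' to the 5' control probe set of Gapdh, a sign of RNA quality, was 0.96 to 1.19, with 1.1 and 1.19 on the olive oil arrays. For beta-actin this ratio was 2.1 to 2.75, and the highest value was on the second olive oil array. The summed signal of the 7 hepatocyte markers on the annotation, of 8 listed, was 55890 to 64410 over the 10 arrays. It was 2642 to 4346 for 8 macrophage, 894 to 1194 for 6 stellate cell, 1336 to 1836 for 5 endothelial, 121 to 234 for 4 bile duct and 4412 to 10380 for 7 blood cell markers. That of 4 adipocyte markers was 114 to 192. Of these, Adipoq lay between 1.2 and 18.8, against a background bound of 12.8 taken from the highest signal of a bacterial control sequence. Lep lay between 5.4 and 30.3 and Plin1 between 1.5 and 32.2, while Cfd, at 68.3 to 156.7, was above the bound on every array.

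Promoter sequences of 4 of the 7 genes were in the RefSeq table (build GRCr8, 250 bases before to 50 after the gene's start): Acly (chr10:85963582-85963881, minus strand), Acss2 (chr3:164464453-164464752, plus strand), Me1 (chr8:96540195-96540494, minus strand) and Acacb (chr12:48138165-48138464, minus strand). Fasn, Acaca and Elovl6 had no entry. The 4 are shown because they had an entry, and a link between these sequences and the signals was not tested. Capitals mark matches, on either strand, to the GC box GGGCGG, the CCAAT box CCAAT, the part TCACCC of the classic sterol regulatory element, and TGACNNNGC, the antioxidant response element.
Acly: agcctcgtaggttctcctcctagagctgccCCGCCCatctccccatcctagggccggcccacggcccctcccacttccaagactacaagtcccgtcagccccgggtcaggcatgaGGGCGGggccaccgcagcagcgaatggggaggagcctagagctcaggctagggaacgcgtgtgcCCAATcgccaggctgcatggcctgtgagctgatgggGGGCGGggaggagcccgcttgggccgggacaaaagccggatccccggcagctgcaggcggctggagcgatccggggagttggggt
Acss2: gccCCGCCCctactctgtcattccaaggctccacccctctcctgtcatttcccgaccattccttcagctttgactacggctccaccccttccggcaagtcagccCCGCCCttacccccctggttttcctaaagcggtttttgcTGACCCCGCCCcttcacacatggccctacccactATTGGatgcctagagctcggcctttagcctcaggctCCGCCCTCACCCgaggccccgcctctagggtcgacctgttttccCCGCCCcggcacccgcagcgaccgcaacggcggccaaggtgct
Me1: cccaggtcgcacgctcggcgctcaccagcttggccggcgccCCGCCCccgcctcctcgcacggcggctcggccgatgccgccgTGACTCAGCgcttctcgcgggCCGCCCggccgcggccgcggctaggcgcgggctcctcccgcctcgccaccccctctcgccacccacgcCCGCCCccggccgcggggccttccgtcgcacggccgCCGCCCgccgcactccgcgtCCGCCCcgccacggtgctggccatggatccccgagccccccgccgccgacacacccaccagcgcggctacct
Acacb: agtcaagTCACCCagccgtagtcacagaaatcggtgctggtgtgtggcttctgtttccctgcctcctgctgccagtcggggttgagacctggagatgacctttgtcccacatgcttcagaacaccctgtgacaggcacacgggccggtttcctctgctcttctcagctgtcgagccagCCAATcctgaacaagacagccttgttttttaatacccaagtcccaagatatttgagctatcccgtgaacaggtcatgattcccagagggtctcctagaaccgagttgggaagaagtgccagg
The GC box had 3 matches in Acly, 5 in Acss2, 5 in Me1 and 0 in Acacb, and 33.1% of the 33469 promoters in the table hold at least 1. Acly, Acss2 and Acacb had 1 CCAAT match each and Me1 had 0 (37.5% of all promoters). TCACCC was found 1 time in Acss2 and 1 time in Acacb (15.3%), and TGACNNNGC 1 time in Acss2, where it overlaps a GC box, and 1 time in Me1 (12.1%). The whole sterol regulatory element (0.1%) and the E-box CACGTG (6.4%) were in none of these 4 windows. GC content was 69% in Acly, 64% in Acss2, 81.7% in Me1 and 53.7% in Acacb, against a median of 51.7% over all promoters. A match is a match of letters, not a measured binding site.

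None of the 7 genes differed between the diets past the threshold of the test, in any of the comparisons made. On average most of them were highest with olive oil and lowest with fish oil or chow, but the 2 arrays of 1 diet often differed as much as the diets did. A linear model with 1 mean per diet was fitted with limma to all tested probe sets on the log2(signal + 3.1) scale, and p-values were adjusted over all of them by Benjamini-Hochberg. In limma's F-test for any difference among the 5 diets, 0 of the 11 probe sets passed an adjusted p of 0.05 (adjusted p from 0.348 to 0.947), where 0.14% of all tested probe sets passed. At an unadjusted p under 0.05 there were 5 of 11, where 9.4% of all tested probe sets lay.

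Of the enzymes that supply acetyl-CoA, Acly had signals of 505 and 1388 with chow, 1249 and 1346 with lard, 1638 and 4488 with olive oil, 1843 and 653 with coconut fat, and 327 and 1207 with fish oil. Both olive oil arrays lay above both lard and both chow arrays, whereas the chow, coconut fat and fish oil arrays overlapped. Acss2 had 257 and 889 with chow, 671 and 627 with lard, 795 and 1257 with olive oil, 666 and 370 with coconut fat, and 230 and 404 with fish oil. The second chow array was above the first olive oil array here, and both fish oil arrays were below both lard and both olive oil arrays. The highest array stood 13.7-fold above the lowest for Acly and 5.47-fold for Acss2.

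For Acaca, which makes the malonyl-CoA used in synthesis, the brighter probe set read 141 and 449 with chow, 286 and 304 with lard, 615 and 978 with olive oil, 541 and 378 with coconut fat, and 138 and 323 with fish oil. Both olive oil arrays were above all the others. The diet means of this probe set were 796 ± 257 (SD, n = 2) with olive oil, 460 ± 116 with coconut fat, 295 ± 218 (n = 2) with chow, 295 ± 12.6 with lard and 230 ± 131 with fish oil. On the log2 scale both Acaca probe sets gave the order olive oil, coconut fat, lard, chow and fish oil, and the second ran from 213 ± 93.7 with olive oil to 69.3 ± 51.2 with fish oil. Acacb, the mitochondrial form, read 8 and 40.4 with chow, 55.1 and 32.7 with lard, 84.6 and 81.9 with olive oil, 33.8 and 26.1 with coconut fat, and 43.8 and 26.2 with fish oil. The first chow array was below the background bound, and both olive oil arrays were above the other 8 arrays.

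Fasn varied most. Its brighter probe set read 106 and 1097 with chow, 823 and 521 with lard, 1386 and 3788 with olive oil, 1842 and 580 with coconut fat, and 59.6 and 753 with fish oil, a 63.6-fold range from the first fish oil to the second olive oil array. The order of the diet means on the log2 scale was olive oil, coconut fat, lard, chow and fish oil, and no neighbours in this order were free of overlap. The dimmer Fasn probe set gave the same order, with signals from 25.8 on the first fish oil array to 2242 on the second olive oil array. Elovl6 read 20.1 and 82.9 with chow, 66.5 and 65.8 with lard, 124 and 499 with olive oil, 145 and 89.5 with coconut fat, and 37.3 and 95.3 with fish oil on its brighter probe set. Olive oil was highest on average and chow lowest, and the olive oil and coconut fat arrays overlapped. The dimmer Elovl6 probe set lay at or below the background bound on 3 of 10 arrays, and its order of diets was different below olive oil.

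Me1, the malic enzyme, was the 1 gene of the 7 with fish oil second only to olive oil. Its brighter probe set read 120 and 317 with chow, 398 and 384 with lard, 525 and 1217 with olive oil, 497 and 275 with coconut fat, and 479 and 961 with fish oil. Both fish oil arrays were above both lard and both chow arrays, but overlapped with those of olive oil and coconut fat. The second Me1 probe set also placed fish oil (283 ± 151) after olive oil (519 ± 348) and chow last (105 ± 21, n = 2 each).

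**Figure D1:**
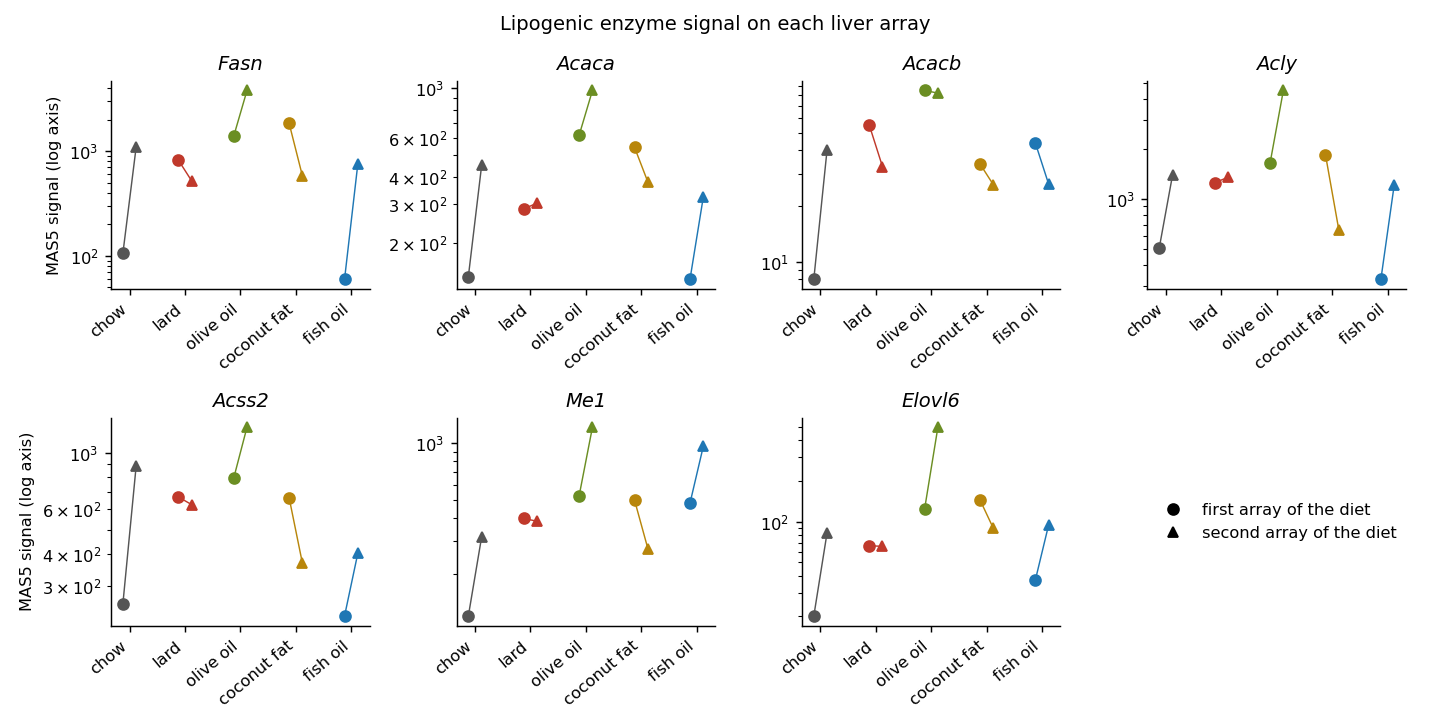
MAS5 signal (log axis) of the brightest probe set of each of the 7 genes on the first (circle) and second (triangle) array of each diet, joined by a line. Fasn spans 59.6 to 3788, and its 2 arrays lie far apart within chow and within fish oil, while the 2 lard arrays lie close together for Elovl6 (66.5 and 65.8).

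The spread between arrays of 1 diet was large for these genes. Pooled over the 5 diets, the within-diet SD of log2(signal + 3.1) was 1.71 and 1.93 for the Fasn probe sets, and of the 18625 tested probe sets only 14 and 8 had a larger one. It was 1 for Acly, 0.98 and 1.31 for Elovl6, and 0.63 to 0.74 for the probe sets of Acaca, Acacb, Acss2 and Me1. The median of the 11 was 0.74, against 0.3 over all tested probe sets, of which 10% exceeded 0.7. Differences between diet means made up a median of 58.4% of the variation of the 11 probe sets over the arrays, against 49.6% for all tested probe sets. This share is not corrected for the number of diets. With 2 arrays per diet it lies well above 0 even where a diet has no effect.

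**Figure D2:**
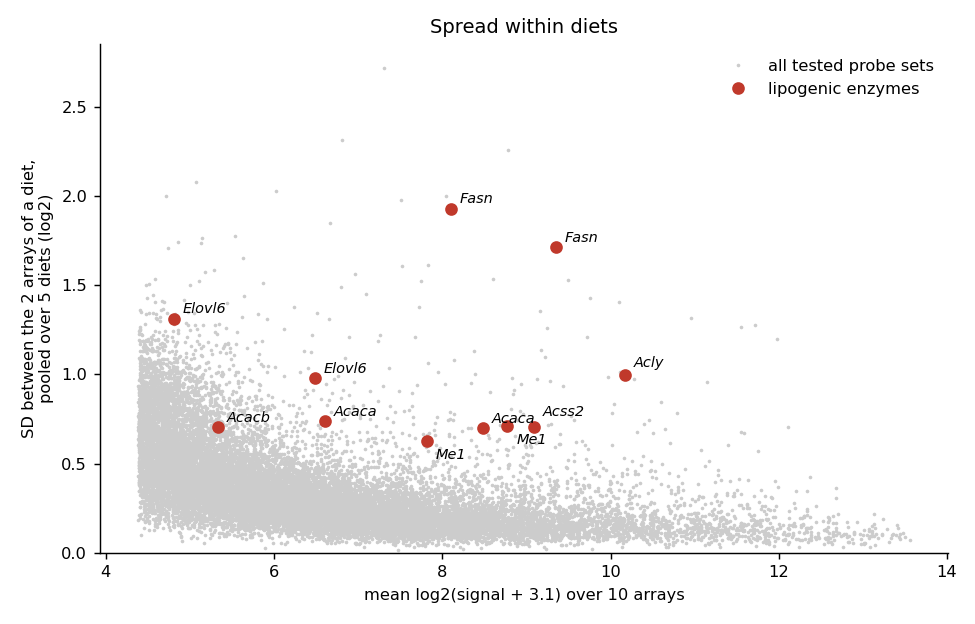
Within-diet SD of log2(signal + 3.1), pooled over the 5 diets, against the mean over the 10 arrays, for all 18625 tested probe sets (grey) and the 11 of the lipogenic enzymes (red). Both Fasn probe sets, at 1.71 and 1.93, lie near the top of the plot, and each of the other 9 exceeds at least 86.7% of all tested probe sets.

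Within chow, olive oil, coconut fat and fish oil the enzymes differed between the 2 arrays mostly in the same direction. On all 11 probe sets the second chow array was higher than the first, with a median difference of 1.78 on the log2 scale, where 47.2% of all tested probe sets were higher. Fasn was 10.4-fold and Acacb 5.05-fold higher on the second chow array. With fish oil 10 of 11 were higher on the second array (46.6% of all tested probe sets), Fasn by 12.6-fold and Acly by 3.69-fold, and the exception was Acacb. With olive oil 10 of 11 were higher on the second array (49.9%), Elovl6 by 4.02-fold and Acly by 2.74-fold, again with Acacb as the exception. With coconut fat all 11 were lower on the second array, with a median of -0.76 and a value of -1.66 for Fasn, where 50.2% of all tested probe sets were higher. The 2 lard arrays differed little, with a median of -0.05, except for Fasn (-0.66 and -1.38), Acacb (-0.7) and the dimmer Elovl6 probe set (-1.64). The joint pattern of chow, olive oil and fish oil higher and coconut fat lower, with lard left out, was described after the values were seen. Its share among the 11 probe sets is therefore a description and not a test. The pattern was shown by 10 of 11 probe sets and by 6.79% of all tested ones. By gene it was shown by 6 of the 7 enzymes, by 5 of 14 genes of substrate and NADPH supply (Slc25a1, Pgd, Tkt, Pklr and Mdh1), by 3 of 15 regulators, by 3 of 14 genes of desaturation, elongation and esterification, by 1 of 10 of malonyl-CoA handling, by 1 of 5 kinase subunits, by 1 of 7 hepatocyte markers and by 0 of 8 macrophage markers.

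**Figure D3:**
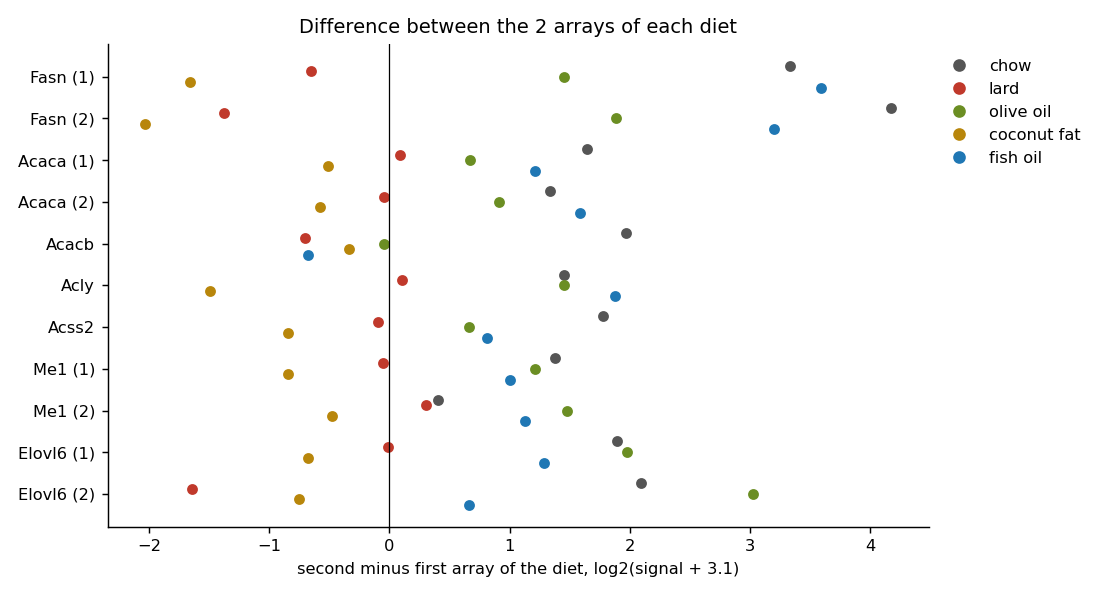
Difference between the second and the first array of each diet in log2(signal + 3.1), for each of the 11 probe sets (1 is the brighter and 2 the dimmer probe set of a gene). Chow points lie right of 0 and coconut fat points left of 0 for all 11, and olive oil and fish oil points right of 0 for all but Acacb.

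Over the 10 arrays the signal of Fasn went with that of most other members. As a description, with no p because the genes were chosen with earlier results known, the correlation of log2 values with Fasn was r = 0.96 for Acaca (Spearman's rho 0.9), 0.94 for Acly (0.93), 0.91 for Acss2 (0.88) and 0.89 for Elovl6 (0.89). It was lower for Acacb (r = 0.59, rho 0.56) and Me1 (r = 0.58, rho 0.59). Without the first chow and the first fish oil array, the 2 arrays farthest from the median of Fasn, r was 0.92 for Acaca, 0.9 for Acly, 0.78 for Acss2, 0.91 for Elovl6, 0.67 for Acacb and 0.63 for Me1. Within diets, the difference between the 2 arrays had the sign of that of Fasn in 5 of 5 diets for Me1, Elovl6 and Acss2. It had that sign in 4 of 5 for Acaca and Acly and in 3 of 5 for Acacb. In lard the differences were close to 0 for Me1 (-0.051), Elovl6 (-0.015), Acss2 (-0.099), Acaca (0.086) and Acly (0.108), so their signs there say little. Taken as deviations from the diet means, r with Fasn was 0.97 for Acaca, 0.94 for Acly, 0.93 for Acss2 and 0.93 for Me1. It was 0.89 for Elovl6 and 0.42 for Acacb, each from 5 pairs of arrays. The arrays of 1 diet share that diet, so the r over all arrays does not rest on 10 independent points.

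Against chow, the fold changes of the averaged 4 high-fat diets were above 0 for all 11 probe sets, with a median log2 fold change of 1.09 (-0.002 over all tested probe sets). In limma 0 of 11 passed (adjusted p from 0.366 to 0.978), where 0.0376% of all tested probe sets did, and 4 of 11 had an unadjusted p under 0.05 (6.66%). These 4 were both Me1 probe sets (1.42, SE 0.4, and 1.35, SE 0.36), Acacb (1.09, SE 0.44) and the brighter one of Elovl6 (1.25, SE 0.55). Without the first chow array they were at 0.73, 1.15, 0.1 and 0.31, in the same order. For Acacb that array, at 8, was below the background bound. For Fasn the log2 fold change was 1.14 with a 95% interval from -0.88 to 3.17, and for Acss2 it was 0.23 with an interval from -0.63 to 1.08, so neither a rise nor a fall can be read from these arrays. On 1 of 11 probe sets, the dimmer one of Me1, all 8 high-fat arrays were above both chow arrays (2.55% of all tested probe sets).

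Olive oil gave the highest values against chow. The median log2 fold change was 1.97 (0.02 over all tested probe sets), and on 9 of 11 probe sets both olive oil arrays lay above both chow arrays (20.5% of all tested probe sets). In limma 0 of 11 passed (adjusted p from 0.173 to 0.85), where 0.0268% of all tested probe sets did, and 9 of 11 had an unadjusted p under 0.05 (8.38%). Fasn had a log2 fold change of 2.73 (SE 1.16, 95% interval 0.17 to 5.29, limma adjusted p = 0.574), and Elovl6 of 2.5 (SE 0.69, limma adjusted p = 0.328). The dimmer Me1 probe set had the lowest p, with 2.11 (SE 0.45, limma adjusted p = 0.173), and Acss2 the lowest fold change of the brighter probe sets, 1.06 (SE 0.49, limma adjusted p = 0.605). The 3' to 5' ratio of Gapdh was highest on these arrays too, and its part in these values was not tested. Single arrays moved these values by over 1.5 times. When the first or, in turn, the second chow array was left out, Fasn was at 1.06 and 4.4, Acly at 0.96 and 2.42, Acaca at 0.78 and 2.43, Acacb at 0.99 and 2.96, Acss2 at 0.17 and 1.95 and the brighter Me1 probe set at 1.33 and 2.71. Elovl6 was at 1.51 without the second and at 3.49 without the first olive oil array, and the dimmer Me1 probe set at 1.37 and 2.85. Lard and coconut fat had smaller median fold changes against chow than olive oil. With lard all 11 fold changes were above 0 (median 0.63), 0 passed in limma and 0 had an unadjusted p under 0.05, where 0.0161% and 7.99% of all tested probe sets did. Acacb had the largest, 1.05 (95% interval -0.18 to 2.29), followed by Me1 at 0.99 (-0.11 to 2.09). Both lard arrays were above both chow arrays on both Me1 probe sets (2 of 11, against 23% of all tested probe sets). With coconut fat 10 of 11 were above 0 (median 0.83), with Fasn at 1.58 (95% interval -0.98 to 4.15) and Elovl6 at 1.39 (-0.13 to 2.91). Both coconut fat arrays were above both chow arrays on 2 of 11 probe sets, 1 of Me1 and 1 of Elovl6 (17.1% of all tested probe sets). Again 0 of 11 passed, as did 0% of all tested probe sets, and 0 of 11 against 5.43% had an unadjusted p under 0.05. Against the mean of lard and olive oil, coconut fat had all 11 fold changes below 0 (median -0.55), the lowest being Acacb at -0.94 (SE 0.48, limma adjusted p = 0.773). In limma 0 of 11 and 0% of all tested probe sets passed, and 0 of 11 against 6.71% had an unadjusted p under 0.05. Both coconut fat arrays were below all lard and olive oil arrays on 0 of 11 (9.37% of all tested probe sets).

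Between fish oil and chow no direction could be read for most of the enzymes, and Me1 had the largest fold changes. Of the 11 fold changes 5 were above and 6 below 0 (median -0.11), 0 passed in limma, where 0.156% of all tested probe sets did, and 2 had an unadjusted p under 0.05 (7.63%). Both were probe sets of Me1, at 1.78 (SE 0.5, limma adjusted p = 0.336) and 1.31 (SE 0.45, limma adjusted p = 0.486), and without single arrays they ran from 1.09 to 2.47 and from 0.75 to 1.88. All fish oil arrays were above all chow arrays on these 2 of 11 probe sets, a share near the 17.5% of all tested probe sets. Fasn had a log2 fold change of -0.67 with a 95% interval from -3.23 to 1.89, Acly of -0.41 (-1.92 to 1.09) and Acss2 of -0.64 (-1.73 to 0.44). These intervals include falls and rises of more than 1 on the log2 scale for Fasn and Acly.

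Compared with lard, olive oil and coconut fat averaged, which have the same labelled share of energy from fat, fish oil had lower values on 10 of 11 probe sets (median log2 fold change -1.02, -0.02 over all tested probe sets). In limma 0 of 11 passed (adjusted p from 0.283 to 0.98), where 0.424% of all tested probe sets did, and 6 of 11 had an unadjusted p under 0.05 (11.8%). Fasn was at -2.41 (SE 0.95, 95% interval -4.51 to -0.32, limma adjusted p = 0.348) and Acly at -1.31 (SE 0.56, limma adjusted p = 0.39). Acaca was at -1.14 (SE 0.4, limma adjusted p = 0.288) and Acss2 at -1.16 (SE 0.4, limma adjusted p = 0.283). Elovl6 (-1.01, 95% interval -2.25 to 0.23) and Acacb (-0.45, -1.46 to 0.56) had intervals that span 0. Me1 was at 0.48 (95% interval -0.42 to 1.37) on its brighter and -0.05 (-0.86 to 0.76) on its dimmer probe set. Both intervals span 0, so no direction can be read for it. On none of the 11 were all fish oil arrays below all arrays of the other 3 diets (0 of 11, against 6.8% of all tested probe sets). All 8 tested markers of macrophages and Kupffer cells were below 0 in this comparison too. Their summed signal was 2642 and 2830 with fish oil and 3034 to 4346 on the arrays of the other 3 diets, and the 5 tested blood cell markers were all below 0 (median -0.64). The part of both in these values was not tested.

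**Figure D4:**
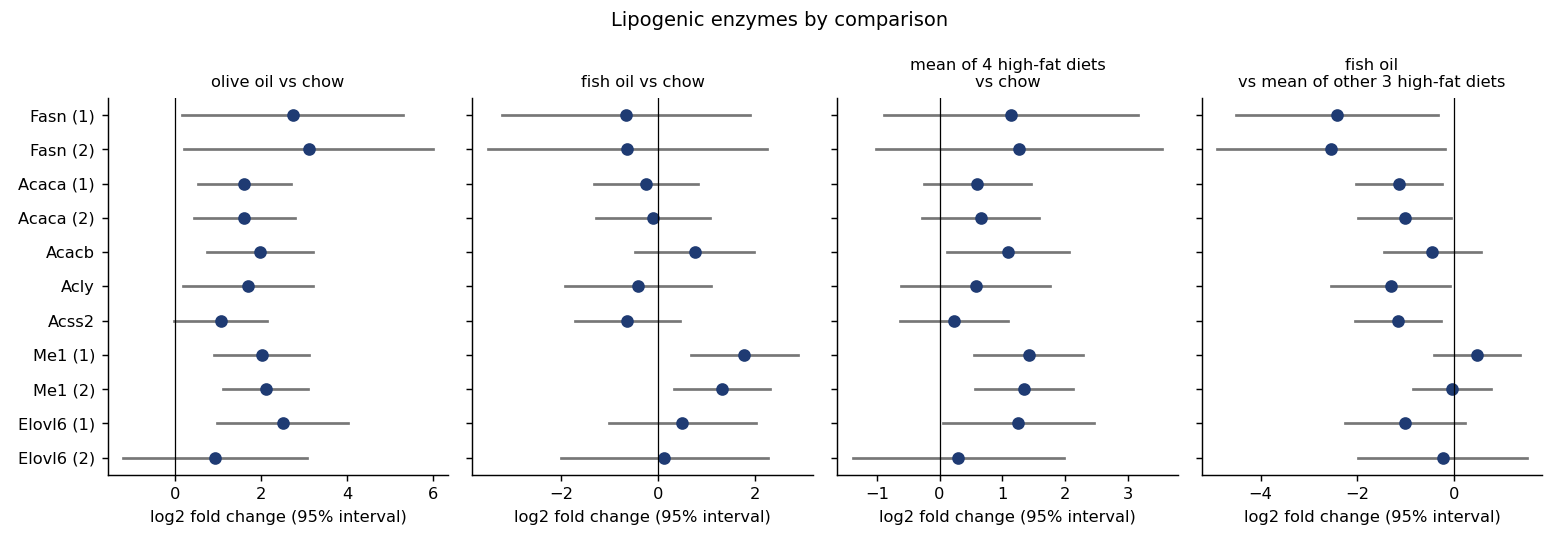
Log2 fold change on the log2(signal + 3.1) scale with its 95% interval (limma) for the 11 probe sets in 4 comparisons; each panel has its own horizontal scale. All 11 points lie right of 0 with olive oil against chow, and all but the brighter Me1 probe set left of 0 with fish oil against the other 3 high-fat diets; the Fasn intervals are the widest.

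Single arrays decided the direction of many of these values. Of the 77 fold changes (11 probe sets in 7 comparisons), 40 changed sign when 1 array was left out, 31 of them in comparisons with chow. In 26 of those the lowest value came without the first and the highest without the second chow array. For Fasn, the value of the high-fat diets over chow was at -0.53 without the first chow array and at 2.81 without the second. With fish oil against the other 3 diets, the signs of Fasn, Acaca, Acacb, Acly, Acss2 and the brighter Elovl6 probe set held without any 1 array, and those of both Me1 probe sets and the dimmer Elovl6 one did not. The sizes did not hold: without the first fish oil array Fasn was at -0.62, Acly at -0.38, Acaca at -0.54 and -0.23, Elovl6 at -0.37 and Acss2 at -0.76, and without the second they were at -4.21 (Fasn), -2.25 (Acly), -1.75 and -1.81 (Acaca), -1.65 (Elovl6) and -1.56 (Acss2). Acacb was the other way round, at -0.79 with the first left out and -0.11 with the second left out.

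Genes of neighbouring steps were described from lists chosen with the enzymes, each gene by its brightest probe set. In the 7 comparisons, 0 genes of the 5 lists passed in limma. Of 14 tested genes that supply substrate and NADPH, 9 were above 0 for the high-fat diets against chow (median 0.15) and 9 were below 0 for fish oil against the other 3 (median -0.16). Pklr, the pyruvate kinase of liver, was at -1.31 (SE 0.43, limma adjusted p = 0.261) and Pgd, an NADPH-making enzyme of the pentose phosphate pathway, at -0.74 (SE 0.37, limma adjusted p = 0.477) in the latter. For the high-fat diets against chow they were at 0.61 (SE 0.42, limma adjusted p = 0.886) and 0.51 (SE 0.36, limma adjusted p = 0.889). Among 10 genes of malonyl-CoA handling, 2 are named for fish oil against the other 3 diets. In that comparison Thrsp, a thyroid hormone responsive protein of lipogenic tissues, was at -1.27 (SE 0.7, limma adjusted p = 0.522). Mecr, of mitochondrial fatty acid synthesis, was at 0.73 (SE 0.25, limma adjusted p = 0.279) there. Mid1ip1, a relative of Thrsp that promotes the activity of acetyl-CoA carboxylase, was at 0.6 (SE 0.21, limma adjusted p = 0.605) and Thrsp at 1.15 (SE 0.68, limma adjusted p = 0.834) for the high-fat diets against chow. Cpt1a, the carnitine palmitoyltransferase that malonyl-CoA inhibits, read 2006 and 2019 with chow and 3909 and 1970 with fish oil. The first fish oil array was thus above chow and the second close to it. On the arrays of lard, olive oil and coconut fat it read 2094 to 2842. Of the 5 tested subunits of the AMP-activated kinase, which phosphorylates the carboxylases, Prkab1 was at 0.79 (SE 0.22, limma adjusted p = 0.417) and Prkag2 at 0.18 (SE 0.18, limma adjusted p = 0.95) for the high-fat diets against chow. For fish oil against the other 3, Prkab1 was at -0.23 (SE 0.23, limma adjusted p = 0.765) and Prkaa1 at -0.2 (SE 0.15, limma adjusted p = 0.676).

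Srebf1, which encodes SREBP-1, read 206 and 848 with chow, 1264 and 1162 with lard, 1441 and 1959 with olive oil, 1836 and 1854 with coconut fat, and 465 and 1436 with fish oil. All arrays of lard, olive oil and coconut fat were above both chow arrays, while the first fish oil array lay between the chow arrays. For the mean of the high-fat diets against chow its log2 fold change was 1.65 (SE 0.45, limma adjusted p = 0.406), the largest of 15 tested regulators, of which 7 were above and 8 below 0. Ppara, the fatty acid receptor of the fasting response, read 41.6 and 3.2 with chow and 11.4 to 104 with the high-fat diets. With 1 chow and 1 olive oil array below the background bound, no fold is given for it. Insig1, which retains the SREBP precursors in the endoplasmic reticulum, was at -1.46 (SE 0.54, limma adjusted p = 0.316) for fish oil against the other 3 diets, and Nr0b2, a corepressor induced by bile acids, at -1.17 (SE 0.46, limma adjusted p = 0.346). Among 14 genes of desaturation, elongation and esterification, Scd, the stearoyl-CoA desaturase, read 548 and 5610 with chow and 1924 and 6126 with fish oil. Its lowest arrays were the first of chow and the first of fish oil, as for Fasn. For the high-fat diets against chow it was at 1.5 (SE 0.65, limma adjusted p = 0.725). Scd2, a second desaturase, was at 0.76 (SE 0.23, limma adjusted p = 0.213) for fish oil against the other 3 diets, where 11 of the 14 were below 0. Pnpla3, a lipid droplet hydrolase gene, ranged from 1.4 on the first chow and the first fish oil array to 2093 on the second olive oil array. Its fold change for fish oil against the other 3 diets was -4.68 (SE 1.13, limma adjusted p = 0.123), a loose value, since the first fish oil array was below the background bound and the second, at 13, near it. For the high-fat diets against chow Pnpla3 was at 2.89 (SE 1.1, limma adjusted p = 0.642), farther from 0 than Scd. That value is loose too, since the first chow array was below the background bound.

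The genes most like the 7 enzymes over the 10 arrays were found by Pearson's r with the mean z-score of the enzymes, among 10463 other genes. Pgd came first (r = 0.98, rho 0.99), with 173 and 453 with chow, 415 and 369 with lard, 531 and 989 with olive oil, 429 and 261 with coconut fat, and 196 and 379 with fish oil. It was lowest on the first chow and first fish oil arrays and highest on the second olive oil array, as were Fasn, Acaca, Acly, Acss2 and Elovl6. Xpc, of DNA repair (0.95), Pdk1, a pyruvate dehydrogenase kinase (0.94), Slc25a1, the mitochondrial citrate carrier (0.94), Pklr (0.94) and Marveld1 (0.94) followed. These genes were picked for their r, which is therefore a description, and the arrays of a diet are shared by all of them.

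**Figure D5:**
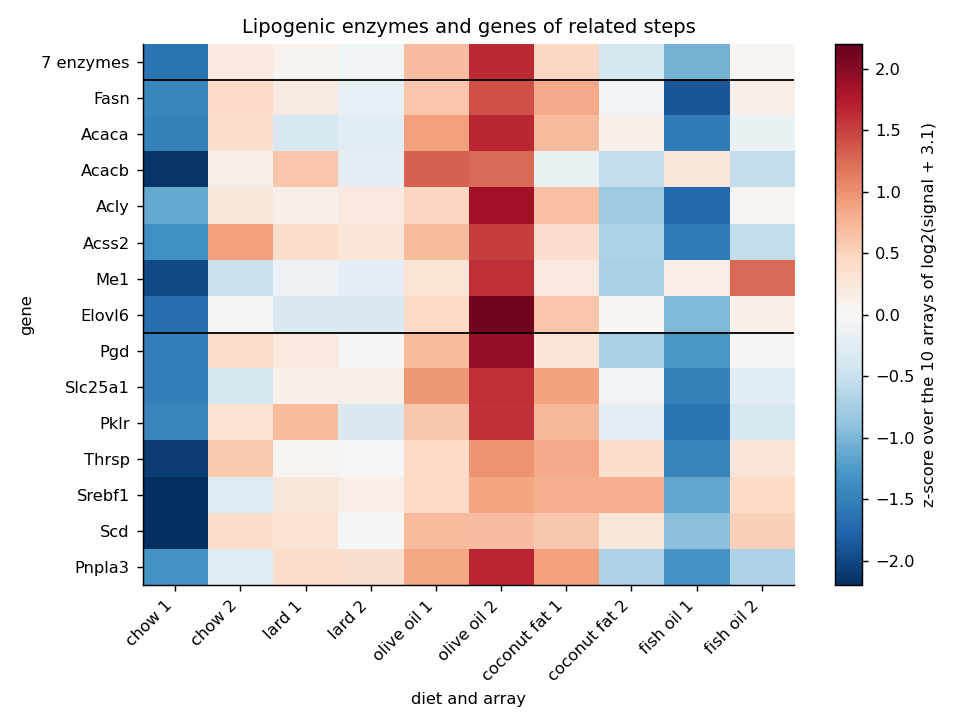
Z-scores over the 10 arrays of log2(signal + 3.1) for the 7 enzymes and 7 selected genes of related steps, with the mean z-score of the 7 enzymes in the top row. The selected genes had r from 0.81 (Srebf1) to 0.98 (Pgd) with that mean, so they do not stand for their lists. Among genes of the same lists that are not shown, Insig2 (-0.72), Mecr (-0.61) and Dgat1 (-0.59) had r below 0. The first chow array (mean z-score -1.6) and the first fish oil array (-1.04) are low and the second olive oil array (1.64) high in most of the rows shown.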

How the data were processed

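Deposited signals are an intensity from the MAS5 algorithm, not on a log scale; that the authors used MAS5 is per the submitters' processing notes, without a version. The 57 control probe sets were removed. Symbols came from the platform annotation, and 0 changed when brought up to date by gene identifier. Signals were turned into log2(signal + 3.1), with the 10th percentile of the signals, 3.1, as offset, and the dimmest 40% of probe sets by mean were dropped, which kept 18625. The linear model (limma 3.58.1, R 4.3.3) had a mean for each diet, 5 residual degrees of freedom and a prior worth 5.96 more, with the variance trend on intensity, with Benjamini-Hochberg adjustment at 0.05 within each comparison. Every probe set of the 7 genes was named. Of each other list, genes that passed were to be named, and with none passing the 2 farthest from 0 in each of 2 comparisons were taken, beside the 6 genes most like the enzymes; Cpt1a was added after its values were seen. A log2 fold change understates the change of dim genes. The genes, lists and tests were chosen with earlier results of these data known. Macrophage, stellate, endothelial, bile duct and blood cell markers were listed beside those of hepatocytes and adipocytes, and of all these markers 1 passed in any comparison, Cd74, with a log2 fold change of -1.2 for fish oil against chow (limma adjusted p = 0.045).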

Additional observations from a re-analysis of the deposited data

How the results depend on the processing

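Over 18 alternative settings (2 other normalizations, another offset, 2 other filters on dim probe sets, no intensity trend, only the diets compared, the replicate block and each of the 10 arrays left out), the count of the 11 probe sets that passed was 0 in all 142 combinations of setting and comparison. In the alternative settings that kept all arrays, the lowest adjusted p of any was 0.0984 (limma). Without the second chow array, Acacb was at 2.96 with olive oil against chow. The 1 chow array then left, at 8, was below the background bound for Acacb. Under the filter that drops 60% of probe sets, Acacb and the dimmer Elovl6 probe set were not tested. With 1 array left out, the remaining array of that diet is assumed to vary like those of the other diets. Only 1 of the 77 fold changes changed sign under a setting that kept all arrays: the dimmer Me1 probe set for fish oil against the other 3 diets, at 0.006 after a shift to the same 75th percentile. With the replicate number as a block, which leaves the fold changes as they are, 0 members passed (lowest adjusted p 0.129). Over all tested probe sets, the differences between the second and the first array of a diet correlated at -0.03 to 0.08 between diets. This gave no sign of a pairing by number over all probe sets, and it cannot settle the question for the 11. With the block, fish oil against the other 3 diets gave 60 calls over all probe sets in place of 79, fish oil against chow 20 in place of 29, and lard against chow 0 in place of 3.

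With 1 array left out in turn, these values changed sign (brighter probe set first, lowest to highest). For lard against chow, Fasn ran from -0.74 to 2.59 and from -1.25 to 2.92, Acaca from -0.602 to 1.04 and from -0.28 to 1.05, Elovl6 from -0.31 to 1.58 and from -0.86 to 1.23, Acly from -0.098 to 1.35 and Acss2 from -0.45 to 1.33. For coconut fat against chow, Fasn ran from -0.085 to 3.25 and from -0.31 to 3.87, Acacb from -0.41 to 1.56, Acly from -0.36 to 1.14, Acss2 from -0.84 to 0.94 and the dimmer Elovl6 probe set from -1.09 to 1. For fish oil against chow, Fasn ran from -2.46 to 1.13 and from -2.72 to 1.45, Acaca from -1.08 to 0.57 and from -0.901 to 0.68, Elovl6 from -0.45 to 1.44 and from -0.92 to 1.17, Acacb from -0.23 to 1.74, Acly from -1.35 to 0.53 and Acss2 from -1.53 to 0.25. For the high-fat mean against chow, Fasn ran from -0.53 to 2.81 and from -0.82 to 3.36, Acaca from -0.22 to 1.42 and from -0.009 to 1.32, Acly from -0.15 to 1.3, Acss2 from -0.66 to 1.12 and the dimmer Elovl6 probe set from -0.75 to 1.35, which with olive oil ran from -0.58 to 2.44. For fish oil against the other 3 diets, Me1 ran from -0.024 to 0.98 and from -0.61 to 0.52 and the dimmer Elovl6 probe set from -0.74 to 0.27. For coconut fat against lard and olive oil, Fasn ran from -1.08 to 0.59 and from -1.21 to 0.83, Acaca from -0.34 to 0.18 and from -0.54 to 0.035, and Elovl6 from -0.67 to 0.32 and from -1.36 to 0.15.

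Over all tested probe sets, the number called moved with the setting: from 6 to 115 (79 as reported) for fish oil against the other 3 diets, from 5 to 41 (29) for fish oil against chow, from 0 to 21 (5) for olive oil, 0 to 8 (3) for lard and 0 to 5 (0) for coconut fat against chow, from 0 to 12 (7) for the high-fat mean, from 0 to 1 (0) for coconut fat against lard and olive oil, and from 1 to 36 (26) for the F-test. The lowest of 6, 0 and 1 for fish oil against the other 3, the high-fat mean and the F-test came without the intensity trend in limma's variance model, as did the 0 for olive oil; the cause was not tested. Single chow arrays gave other extremes: without the second, olive oil had 21 and fish oil 5 calls against chow, and without the first, fish oil had 41 against chow and the F-test 36.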
